A study of Mus musculus with 12 samples.

Results

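Heat shock genes and cold-inducible RNA-binding genes were followed across 12 mouse livers. The genes were chosen by name: Hsf1, Hspa1a, Hspa1b, Hspa8, Hsph1, Hsp90aa1, Dnajb1 and Hspb1 for heat shock, and Cirbp and Rbm3 for cold. Of these 10 names, 9 were found among the 48537 genes of the table, and Hspa8 is not analysed here. Of the 9 genes found, 8 had a mean of at least 1 TPM over the 12 livers and were tested. TPM is a level of RNA corrected for gene length, with the same sum in every library. Hspa1a fell below that mean and is described by its values alone.

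The livers were collected at zeitgeber time 10, which is 10 h after lights on, and were sequenced as total RNA. The labels gave 3 groups of 4 livers. Re-expression livers carried the double knockout of the REV-ERBs and expressed REV-ERBalpha again. Livers labelled DKO carried the double knockout with YFP, a fluorescent protein. Control livers were wild type, also with YFP. The REV-ERBs are repressors of the circadian clock and belong to the nuclear receptors; their genes are Nr1d1 and Nr1d2. Column headers name Cre for the livers labelled DKO alone, so an action of Cre cannot be told apart from that of the REV-ERBs in the comparison with control livers. Headers of the re-expression livers name YFP and not Cre, and whether Cre was present in these livers cannot be read from them. The comparison of re-expression with control livers carries the same limit. The promoter that drove Cre or REV-ERBalpha, and the age of the mice, are not given in the sources used here.

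Heat shock proteins are chaperones that bind unfolded proteins, and their genes are switched on by HSF1, a factor that is held inactive in unstressed cells. CIRBP and RBM3 are RNA-binding proteins whose RNA accumulates when the temperature falls by a few degrees. In rodents both groups are known to follow the daily rhythm of body temperature, heat shock genes with the warm phase and Cirbp and Rbm3 with the cool phase, so they read signals that reach the liver from the rest of the body. All livers here came from a single time of day, so no rhythm can be read from them.

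Each library held 5621667 to 6906221 reads, recovered from the steps of the TPM values. Nr1d1 had 191 ± 22.4 TPM in re-expression livers, 82.5 ± 7.39 TPM in livers labelled DKO and 68.7 ± 5.53 TPM in control livers (SD, n = 4 each). Its mean was 2.32-fold that of livers labelled DKO after re-expression (adjusted p = 0.000452, limma). Neither Nr1d1 nor Nr1d2 was called lower in the livers labelled DKO, and a level over the whole gene cannot check a deletion of part of it. Control replicates 3 and 4 stood apart from the other libraries, with scores of -43.8 and -48.7 on the second principal component against -8.48 to 30.3 elsewhere. On the first component control replicates 1 and 2 stood apart, at 63.2 and 37.1 against -29.5 to 20.6, so the control group was split on both and results are also given without either pair. All comparisons share groups: both comparisons with control livers use the same 4 control livers, and the livers labelled DKO stand in 2 of the 3 comparisons.

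Hspb1 was the 1 member called between groups, lower in livers labelled DKO than in control livers. It encodes a small heat shock protein that holds unfolded proteins in a soluble state and also acts on the actin cytoskeleton. The gene lies on the plus strand at chr5:135887919-135889563 (mm10). Hspb1 had 11.8, 11.8, 11.8 and 10.5 TPM in re-expression livers, 15.8, 10.7, 12.6 and 9.16 TPM in livers labelled DKO, and 18.0, 34.3, 23.6 and 17.0 TPM in control livers. Every control liver lay above every liver of the other groups. The means were 11.5 ± 0.663, 12.1 ± 2.84 and 23.2 ± 7.92 TPM in the same order (SD, n = 4 each). The values rest on few reads, with 22 to 25 reads per library in re-expression livers, 17 to 34 in livers labelled DKO and 31 to 72 in control livers.

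In livers labelled DKO Hspb1 fell to 0.519 of the control mean. The difference was -0.86 on the log2(TPM + 1) scale, with a 95% confidence interval from -1.32 to -0.41 (adjusted p = 0.0328, limma with Benjamini-Hochberg adjustment over all genes tested). Of all 17957 genes tested, 2.34% were called lower and 2.99% were called higher in this comparison. Among the 8 tested members 1 was called lower and 0 were called higher, and 2 had an unadjusted p under 0.05. Voom on the recovered reads also called 1 lower and 0 higher. The authors' deposited table gave Hspb1 a log2 fold change of -0.94 with an adjusted p of 0.0261 in the numbered comparison that follows this one.

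**Figure D1:**
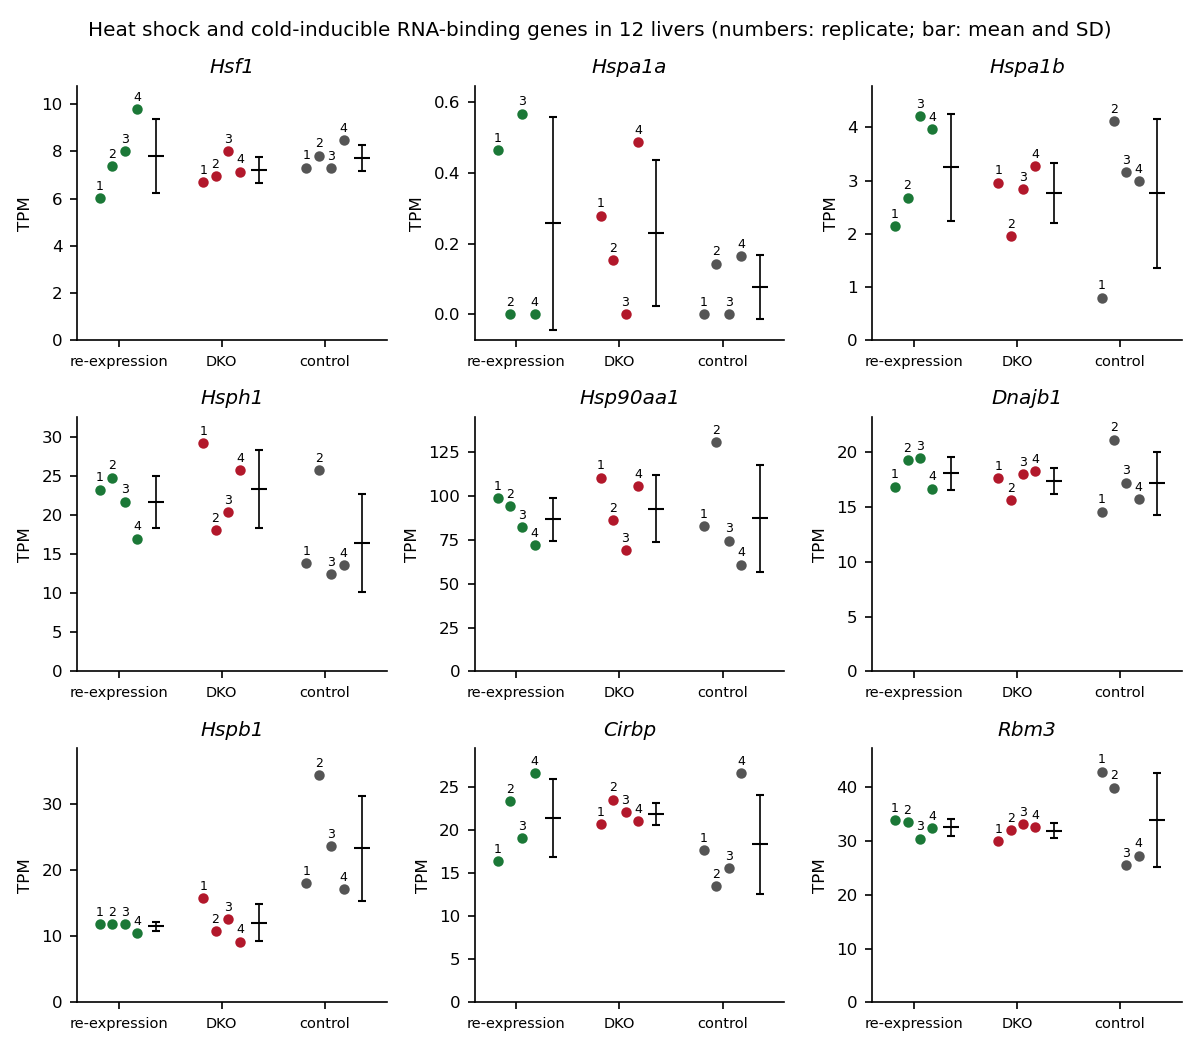
TPM of the 9 genes found (vertical axes, each starting at 0 except that of Hspa1a, which starts just below 0) in the 4 livers of the re-expression, DKO and control groups, with the replicate number at each point and the mean and SD as a bar. The 4 control livers lie above all others for Hspb1, at 17.0 TPM or more, and control replicate 2 is the highest liver of its group for Hsph1, Hsp90aa1, Dnajb1, Hspb1 and Hspa1b.

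In re-expression livers Hspb1 stood near the level of livers labelled DKO and below that of control livers. The difference between re-expression livers and livers labelled DKO was -0.04 on the log2(TPM + 1) scale, with an interval from -0.49 to 0.41. Against control livers the re-expression livers differed by -0.91, with an interval from -1.36 to -0.45, and all 4 lay below all 4 control livers. That difference missed the threshold (adjusted p = 0.0515, limma), in a comparison where 0.663% of genes tested were called lower and 1.16% higher. It passed under voom on the recovered reads (adjusted p = 0.0322) and with library size factors (adjusted p = 0.0397). Groups that did not overlap were found for 11.5% of all genes tested between livers labelled DKO and control livers, 7.28% between re-expression and control livers and 4.25% between re-expression livers and livers labelled DKO. Hspb1 was the 1 member of the 8 whose groups did not overlap in the first and in the second of these comparisons, and there was none in the third.

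The call for Hspb1 in livers labelled DKO did not hold under every choice of libraries and filters. Without control replicate 2, its highest liver, the difference was -0.67 (adjusted p = 0.0567, limma). The call was also lost without control replicate 3 (adjusted p = 0.0775), and without DKO replicates 2, 3 or 4 (adjusted p = 0.0875, 0.0624 and 0.0988). It held without control replicates 3 and 4 together, at -1.01 (adjusted p = 0.0464), and not without control replicates 1 and 2, at -0.72 (adjusted p = 0.0892).

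The promoter of Hspb1 is shown because this gene carries the difference. The 250 bases before its RefSeq start (GRCm38.p6, plus strand, chr5:135887669-135887918) follow 5′ to 3′, with the core of heat shock elements in capitals. This core is a pair of inverted GAA units, GAANNTTC or TTCNNGAA, searched on both strands.
Hspb1: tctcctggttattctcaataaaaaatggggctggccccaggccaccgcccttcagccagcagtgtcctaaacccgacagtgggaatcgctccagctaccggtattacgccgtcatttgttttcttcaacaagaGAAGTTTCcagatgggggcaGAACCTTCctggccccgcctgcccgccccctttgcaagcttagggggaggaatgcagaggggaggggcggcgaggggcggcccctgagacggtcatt
It held GAANNTTC at -117 to -110 and again at -97 to -90, counted from the start. Either core was found in 13.0% of the 27025 mouse promoters of the same length, GAANNTTC alone in 6.79% and TTCNNGAA alone in 7.18%. Promoter entries were available for 6 of the 9 genes found: Hspa1a, Hspa1b, Hsph1, Dnajb1, Hspb1 and Cirbp. A match of letters is a description of the sequence and not a measured site. The core letters of nuclear receptor sites, AGGTCA, which is in 13.8% of promoters, and the E-box CACGTG, which is in 6.04%, were not found in these 6 windows.

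Hsf1 encodes the factor that binds heat shock elements and switches the chaperone genes on. It lies at chr15:76477422-76501913 (plus strand). Its level was 6.03, 7.38, 8.01 and 9.78 TPM in re-expression livers, 6.71, 6.97, 8.02 and 7.15 TPM in livers labelled DKO, and 7.30, 7.81, 7.28 and 8.49 TPM in control livers. The 3 groups overlapped, and re-expression replicates 1 and 4 were the lowest and the highest of the 12 livers. The difference between livers labelled DKO and control livers was -0.09 on the log2(TPM + 1) scale (interval -0.37 to 0.20), and between re-expression livers and livers labelled DKO it was 0.09 (interval -0.20 to 0.37). The protein's activity is set largely after translation, and its RNA does not measure it.

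Hspa1a and Hspa1b encode the inducible Hsp70 chaperones, whose RNA rises steeply under heat or protein stress. The genes lie next to each other on the minus strand of chromosome 17, at chr17:34969190-34972156 and chr17:34956436-34959238. Their transcripts share much sequence: 58.8% of the 50-base words of Hspa1a occur in Hspa1b and 62.3% of those of Hspa1b occur in Hspa1a, so the authors' counting could have lost or split reads of either.

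Hspa1a and Hspa1b were both near the floor of these libraries. Hspa1b had 2.14, 2.68, 4.22 and 3.96 TPM in re-expression livers, 2.96, 1.96, 2.84 and 3.27 TPM in livers labelled DKO, and 0.80, 4.11, 3.16 and 2.99 TPM in control livers. The groups overlapped, with the lowest liver, control replicate 1, and one of the highest, control replicate 2, in the same group. The differences were 0.08 between livers labelled DKO and control livers (interval -0.58 to 0.75) and 0.16 between re-expression livers and livers labelled DKO (interval -0.50 to 0.82), on the log2(TPM + 1) scale. Hspa1a reached at most 0.567 TPM in any liver and had 7 reads in all in re-expression livers, 6 in livers labelled DKO and 2 in control livers. Its group sums are too small for a comparison. With the reads of both genes added, the difference between livers labelled DKO and control livers was 0.28 (interval -0.58 to 1.15, adjusted p = 0.767, limma voom).

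The promoter of Hspa1b is shown as that of the classical heat-induced gene, with the heat shock element core in capitals (RefSeq, GRCm38.p6, minus strand, chr17:34959239-34959488).
Hspa1b: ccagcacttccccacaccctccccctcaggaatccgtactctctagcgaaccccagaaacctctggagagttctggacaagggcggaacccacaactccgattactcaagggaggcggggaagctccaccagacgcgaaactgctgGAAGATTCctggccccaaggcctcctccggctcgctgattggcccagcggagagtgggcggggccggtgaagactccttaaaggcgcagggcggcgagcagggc
The core lay at -104 to -97. The window of Hspa1a had its core at the same place and differed from that of Hspa1b at 3 of 250 bases. The level of Hspa1b reached at most 4.22 TPM in the 12 livers.

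Hsph1 encodes an Hsp110 protein that exchanges the nucleotide of Hsp70 and helps it to release its substrates. It lies at chr5:149614287-149636376 (minus strand). Hsph1 had 23.2, 24.7, 21.7 and 17.0 TPM in re-expression livers, 29.2, 18.1, 20.3 and 25.7 TPM in livers labelled DKO, and 13.9, 25.7, 12.4 and 13.6 TPM in control livers. In the control group 3 livers lay below every liver of the other groups and replicate 2 lay among them. The means were 21.7 ± 3.37, 23.3 ± 5.04 and 16.4 ± 6.26 TPM in the same order (SD, n = 4 each).

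Hsph1 was not called in any comparison. Between livers labelled DKO and control livers the difference was 0.52 on the log2(TPM + 1) scale, with an interval from 0.03 to 1.00 (adjusted p = 0.239, limma). Without control replicate 2 it was 0.75 and passed (adjusted p = 0.0366). Without control replicates 3 and 4 it was 0.26 (adjusted p = 0.563), and without control replicates 1 and 2 it was 0.77 (adjusted p = 0.0748). The difference between re-expression and control livers was 0.43 (adjusted p = 0.483) and 0.17 without control replicates 3 and 4, and between re-expression livers and livers labelled DKO it was -0.09 (interval -0.58 to 0.39). The authors' deposited table gave 0.52 with an adjusted p of 0.221 in the numbered comparison that follows livers labelled DKO against control livers.

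A stretch of 30 bases of the Hsph1 promoter is shown for its heat shock element core, in capitals (RefSeq, GRCm38.p6, minus strand, chr5:149636351-149636380).
Hsph1: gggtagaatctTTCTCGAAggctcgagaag
The core TTCNNGAA lay at -33 to -26 from the RefSeq start, and 26 of the 30 bases are exonic in 2 transcripts of the GENCODE annotation that start farther upstream. In the window of Dnajb1 neither core was found.

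Hsp90aa1 and Dnajb1 work with these chaperones. Hsp90aa1 encodes the stress-inducible cytosolic Hsp90, which holds client proteins such as kinases and steroid receptors, and lies at chr12:110690605-110702728 (minus strand). It had 98.7, 94.2, 82.1 and 71.8 TPM in re-expression livers, 111, 86.2, 69.0 and 106 TPM in livers labelled DKO, and 82.8, 131, 74.6 and 60.8 TPM in control livers. The control group held both the highest and the lowest of the 12 livers. The differences were 0.12 between livers labelled DKO and control livers (interval -0.35 to 0.60) and -0.08 between re-expression livers and livers labelled DKO (interval -0.56 to 0.39), on the log2(TPM + 1) scale.

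Dnajb1 encodes an Hsp40 protein that hands substrates to Hsp70 and stimulates its ATPase, and lies at chr8:83608193-83612653 (plus strand). It had 16.8, 19.3, 19.4 and 16.6 TPM in re-expression livers, 17.6, 15.6, 18.0 and 18.2 TPM in livers labelled DKO, and 14.6, 21.1, 17.2 and 15.7 TPM in control livers. The ranges of re-expression livers and of livers labelled DKO lay inside that of the control livers. The differences were 0.03 between livers labelled DKO and control livers (interval -0.22 to 0.27) and 0.05 between re-expression livers and livers labelled DKO (interval -0.19 to 0.30), and these intervals were the narrowest among the tested members.

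Cirbp encodes a cold-inducible RNA-binding protein that acts on RNA stability and translation, and lies at chr10:80165985-80172786 (plus strand). It had 16.4, 23.4, 19.1 and 26.6 TPM in re-expression livers, 20.7, 23.5, 22.1 and 21.1 TPM in livers labelled DKO, and 17.7, 13.5, 15.6 and 26.6 TPM in control livers. In the control group 3 livers lay below every liver labelled DKO, and replicate 4 lay above them all. The difference was 0.28 on the log2(TPM + 1) scale, with an interval from -0.14 to 0.70 (adjusted p = 0.486, limma). It was 0.47 without control replicate 4 (adjusted p = 0.117) and 0.16 without control replicate 2 (adjusted p = 0.740). Without control replicates 3 and 4 it was 0.47 (adjusted p = 0.146), and without control replicates 1 and 2 it was 0.09 (adjusted p = 0.873). Between re-expression livers and livers labelled DKO it was -0.05 (interval -0.47 to 0.37), and between re-expression and control livers 0.23 (interval -0.19 to 0.65).

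The first 100 bases of the Cirbp promoter window are shown for a match to the mild-cool response element TCCCCGCC, described in the promoter of this gene (RefSeq, GRCm38.p6, plus strand, chr10:80167589-80167688, match in capitals).
Cirbp: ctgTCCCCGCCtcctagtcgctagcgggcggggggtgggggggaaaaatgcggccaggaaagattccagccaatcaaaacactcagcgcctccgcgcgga
The match lay at -247 to -240 from the RefSeq start. These 100 bases lie inside the gene as GENCODE annotates it, which starts farther upstream at chr10:80165985, and 0 of them are exonic there. These 8 letters, searched on both strands, were found in 4.70% of the 27025 promoters, and also on the minus strand of the Hspa1a and Hspa1b windows at -137 to -130.

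Rbm3 encodes the second classical cold-inducible RNA-binding protein and lies at chrX:8138975-8145880 (minus strand). An antisense gene, Rbm3os, overlaps 452 bases of it on the other strand, with a mean of 0.859 TPM. Rbm3 had 33.8, 33.5, 30.4 and 32.4 TPM in re-expression livers, 29.9, 32.0, 33.1 and 32.5 TPM in livers labelled DKO, and 42.9, 39.9, 25.5 and 27.3 TPM in control livers. The 8 livers of the first groups lay close together, and the control livers split, with replicates 1 and 2 above and replicates 3 and 4 below all 8. The coefficient of variation was 4.73% in re-expression livers, 4.32% in livers labelled DKO and 25.9% in control livers.

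The means of Rbm3 differed by less than this spread. The difference between livers labelled DKO and control livers was -0.05 on the log2(TPM + 1) scale, with an interval from -0.37 to 0.27, and between re-expression livers and livers labelled DKO it was 0.03 (interval -0.29 to 0.35). Control replicates 3 and 4, which set the low values of Rbm3, are also the libraries that stood apart on the second principal component. Leaving out either pair of control livers fixes the direction: without replicates 3 and 4, the low ones, the difference between livers labelled DKO and control livers was -0.37 (adjusted p = 0.0255, limma), and without replicates 1 and 2, the high ones, it was 0.26 (adjusted p = 0.105). The median over all genes tested moved to -0.08 and to 0.07. Which of the control livers are typical was not tested.

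**Figure D2:**
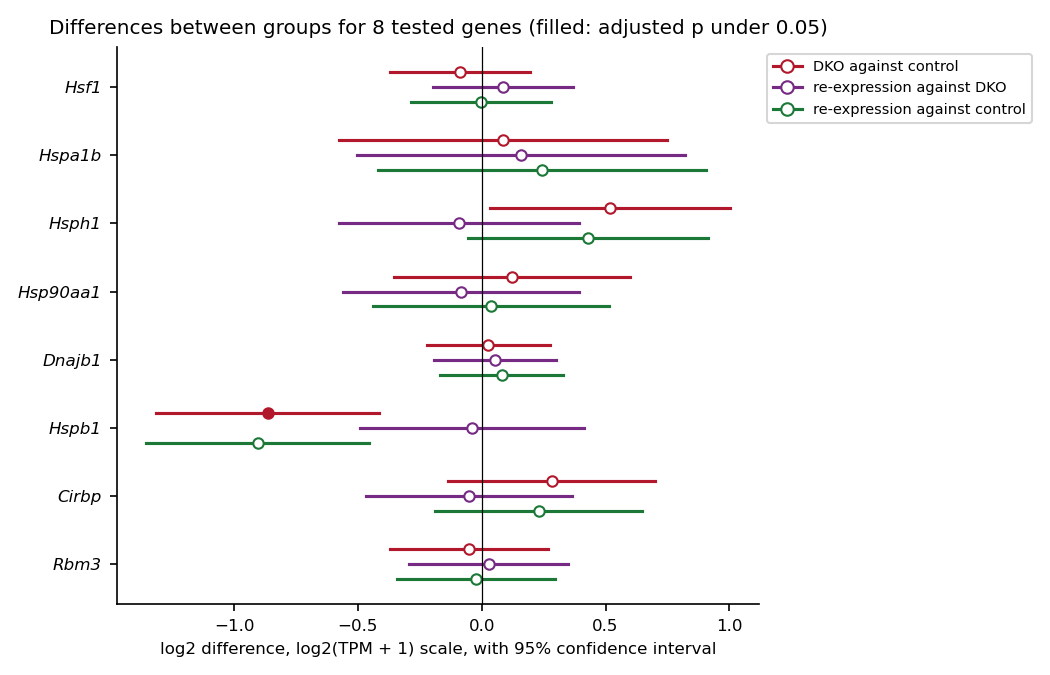
Differences on the log2(TPM + 1) scale (horizontal axis) with 95% confidence intervals for the 8 tested genes in 3 comparisons, with a filled point where the adjusted p was under 0.05. Hspb1 has the 1 filled point, at -0.86 for livers labelled DKO against control livers, and the purple points of re-expression livers against livers labelled DKO lie between -0.09 and 0.16.

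Between re-expression livers and livers labelled DKO all 8 tested members were close to 0. Their differences ran from -0.09 for Hsph1 to 0.16 for Hspa1b, with a median of -0.01 against 0.01 over all genes tested. limma called 0 members and voom called 0, and 0 had an unadjusted p under 0.05. Few genes were called here at all, 0.0278% of those tested higher and 0.0446% lower. The widest interval was that of Hspa1b and the narrowest that of Dnajb1, so the data bound a change of Dnajb1 within -0.19 to 0.30 and leave a wider range for the others.

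The levels of the members, compared per length in TPM, kept much of their order across groups. Hsp90aa1 was highest, at 86.7 ± 12.1 in re-expression livers, 92.9 ± 19.1 in livers labelled DKO and 87.2 ± 30.4 TPM in control livers (SD, n = 4 each). Rbm3 followed at 32.5 ± 1.54, 31.9 ± 1.38 and 33.9 ± 8.78 TPM. Cirbp, Hsph1 and Dnajb1 came next. Hsph1 overlapped both of the others in each group, and in livers labelled DKO every value of Dnajb1 lay below every value of Cirbp. Cirbp averaged 21.4 ± 4.52, 21.8 ± 1.26 and 18.3 ± 5.78 TPM, and Dnajb1 18.0 ± 1.51, 17.3 ± 1.204 and 17.1 ± 2.86 TPM, in the same order. Hspb1 changed its place in this order. In re-expression livers all 4 of its values lay below every value of Dnajb1, whereas in control livers its mean of 23.2 TPM was above the means of Cirbp, Hsph1 and Dnajb1, with ranges that overlapped theirs. Hsf1 averaged 7.80 ± 1.56, 7.21 ± 0.567 and 7.72 ± 0.566 TPM, and Hspa1b 3.25 ± 1.00, 2.76 ± 0.563 and 2.76 ± 1.40 TPM.

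Control replicate 2 stood high for most heat shock genes. It was the highest of its group for 5 of the 6 heat shock genes other than Hsf1, with a median of 0.57 above the group mean on the log2(TPM + 1) scale, against 29.1% of all genes tested that were highest of the control group in this liver. It was 0.02 above the group mean for Hsf1 and the lowest of its group for Cirbp. The next highest liver by the same median, DKO replicate 1, stood at 0.18. Replicate 2 was taken from the labels' numbering and shares nothing known with replicate 2 of the other groups.

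**Figure D3:**
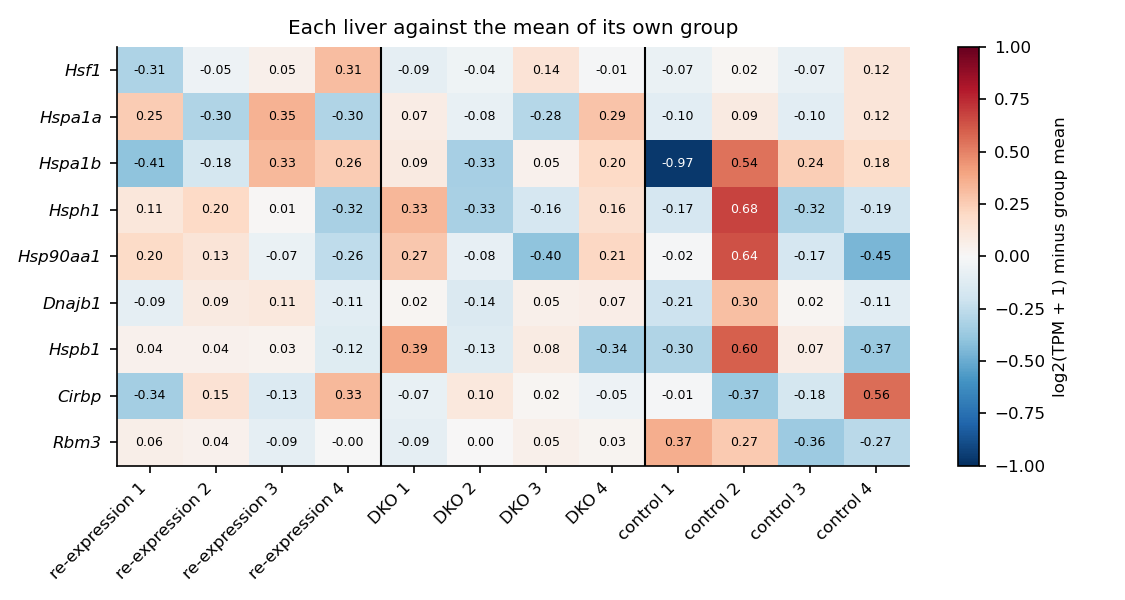
Each liver's log2(TPM + 1) minus the mean of its own group (colour and printed value) for the 9 genes, with re-expression, DKO and control livers from left to right. Control replicate 2 is 0.54 to 0.68 above its group for Hspa1b, Hsph1, Hsp90aa1 and Hspb1, 0.30 above for Dnajb1 and 0.37 below for Cirbp.

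Pairs of members were compared within groups, with the group means removed, over the 12 livers and with exact permutation of livers within groups (13824 permutations, two-sided, 4 relations). Livers with more Dnajb1 had more Hsph1, with Pearson's r = 0.750 (exact p = 0.0367, adjusted 0.147) and Spearman's rho = 0.734 (exact p = 0.0210, adjusted 0.0839). Neither passed the adjustment, and r was 0.517 without control replicates 1 and 2, the livers farthest from the median of Dnajb1. Without control replicate 2 alone it was 0.416 (exact adjusted p = 0.582). Hsph1 and Cirbp had r = -0.543 (exact p = 0.169, adjusted 0.338) and rho = -0.497 (exact p = 0.127, adjusted 0.254), with r = -0.440 without the 2 farthest livers and -0.298 without control replicate 2 alone. The cold-inducible pair, Cirbp and Rbm3, had r = -0.317 (exact p = 0.671, adjusted 0.671) and rho = -0.210 (exact p = 0.629, adjusted 0.629), with r = -0.556 without the 2 farthest livers. For Hspa1a and Hspa1b r was 0.202 (exact p = 0.448, adjusted 0.597) and rho 0.232 (exact p = 0.469, adjusted 0.626), with r = -0.03 without the 2 farthest livers, and it rests on at most 4 reads of Hspa1a in a library.

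**Figure D4:**
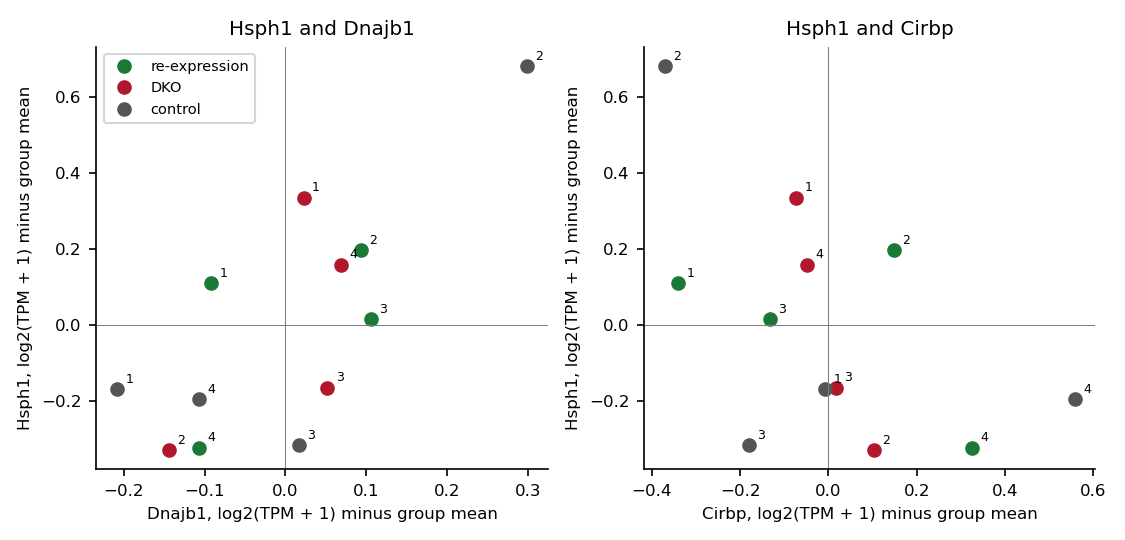
Within-group deviations of Hsph1 (vertical axes, log2(TPM + 1) minus the group mean) against those of Dnajb1 and of Cirbp (horizontal axes, same unit) in 12 livers, coloured by group and numbered by replicate. Control replicate 2 lies at the far end of both panels, and r is 0.750 for Dnajb1 and -0.543 for Cirbp.

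As a description over all 12 libraries, group differences included, the tested genes whose level followed Cirbp most closely were Hyi (r = 0.929), Pym1 (r = 0.891) and Stk11ip (r = 0.887). For Hsph1 they were Yipf5 (r = 0.926), Rint1 (r = 0.917) and Uso1 (r = 0.912). These are the highest of 17957 genes over few livers.

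Other genes of protein folding were read from lists. Counts in each list below are set against the 2.99% of all genes called higher and 2.34% called lower in livers labelled DKO. Of 27 tested cytosolic and nuclear chaperones beside the members, 0 were called in livers labelled DKO against control livers (limma), 0 by voom, and 2 had an unadjusted p under 0.05. These 2 were Cryab, a small heat shock protein related to Hspb1, at 0.65 (adjusted p = 0.205), and Hspa4, a relative of Hsph1, at 0.21 (adjusted p = 0.269). The list's median was 0.08 on the log2(TPM + 1) scale against 0.00 over all genes tested. Of 23 tested co-chaperones 0 were called by either tool and 1 had an unadjusted p under 0.05, with a median of 0.08. That gene was Bag2, a regulator of Hsp70, which differed the other way, at -0.55 (adjusted p = 0.173). Bag3, a heat-induced partner of Hsp70 and of small heat shock proteins, differed by 0.25 (adjusted p = 0.328), and Stip1, which bridges Hsp70 and Hsp90, by 0.25 (adjusted p = 0.288), both with an unadjusted p above 0.05.

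Of 4 tested heat shock factors and regulators, 1 was called lower and 0 higher, against 2.34% lower and 2.99% higher over all genes tested. Hsf4, a heat shock factor known from lens development, had 8.83, 10.6, 7.57 and 11.5 TPM in re-expression livers, 7.45, 7.66, 7.85 and 5.77 TPM in livers labelled DKO, and 9.65, 10.2, 12.9 and 13.2 TPM in control livers. Every liver labelled DKO lay below every control liver, and the re-expression livers spanned the gap. It fell by 0.61 on the log2(TPM + 1) scale in livers labelled DKO against control livers (adjusted p = 0.0396, limma). The call was lost under 16 of 23 alternatives, voom among them, with adjusted p from 0.0287 to 0.167. Leaving out any 1 liver labelled DKO, control replicate 2, 3 or 4, or re-expression replicate 1 or 2 was enough.

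Among 11 tested chaperones and proteases of mitochondria 2 were called higher and 1 lower in livers labelled DKO against control livers. Over all genes tested 2.99% were called higher and 2.34% lower. Clpx, the unfoldase of a mitochondrial protease that also acts on heme synthesis, had 264, 234, 273 and 265 TPM in re-expression livers, 347, 398, 376 and 340 TPM in livers labelled DKO, and 69.9, 62.1, 48.9 and 52.5 TPM in control livers. The 3 groups did not overlap, with re-expression livers between the others. Its mean in livers labelled DKO was 6.26-fold the control mean (log2 difference 2.64, adjusted p = 8.46e-08, limma), and in re-expression livers 4.44-fold (2.14, adjusted p = 8.40e-07). Between re-expression livers and livers labelled DKO it differed by -0.49 (unadjusted p = 0.000630, adjusted p = 0.176). The calls against control livers held under all 23 alternatives. A pseudogene on the other strand, Gm16218, with a mean of 40.0 TPM, overlaps 388 bases of Clpx.

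Dnaja3, a mitochondrial Hsp40 protein, had 100.1, 94.99, 98.0 and 104 TPM in re-expression livers, 120, 109, 108 and 113 TPM in livers labelled DKO, and 89.6, 91.8, 85.5 and 83.8 TPM in control livers. The 3 groups did not overlap, with re-expression livers again between the others. It rose by 0.35 in livers labelled DKO against control livers (adjusted p = 0.00493, limma), and the call held under all 23 alternatives. Coro7, on the other strand at a mean of 11.8 TPM, and Vasn, on the same strand at 15.3 TPM, overlap its gene body.

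Grpel2, a nucleotide exchange factor of mitochondrial Hsp70, had 21.7, 20.8, 22.2 and 17.7 TPM in re-expression livers, 18.2, 18.2, 18.1 and 14.7 TPM in livers labelled DKO, and 36.8, 32.3, 21.6 and 23.7 TPM in control livers. It was lower in all 4 livers labelled DKO than in any control liver, and control replicates 3 and 4 were the closest. Grpel2 fell by 0.67 in livers labelled DKO against control livers (adjusted p = 0.0307, limma), and the call was lost under 8 of 23 alternatives, each of control replicates 1 and 2 and of the livers labelled DKO left out among them, with adjusted p up to 0.146. Without control replicates 1 and 2 together the difference was -0.37 (adjusted p = 0.146, limma), and without control replicates 3 and 4 it was -0.96 (adjusted p = 0.00381). Between re-expression livers and livers labelled DKO 0 of the 11 genes were called by limma, 1 lower by voom, and 3 had an unadjusted p under 0.05. Between re-expression and control livers Clpx was the 1 gene called.

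Of 17 tested chaperones of the endoplasmic reticulum 3 were called higher and 0 lower in livers labelled DKO against control livers. The shares over all genes tested were 2.99% higher and 2.34% lower. Hspa5, the Hsp70 of that compartment and a target of the unfolded protein response, had 370, 431, 484 and 362 TPM in re-expression livers, 595, 386, 356 and 507 TPM in livers labelled DKO, and 254, 330, 258 and 309 TPM in control livers. Every liver of the first groups lay above every control liver. Hspa5 rose by 0.66 (adjusted p = 0.0393, limma), Manf, a secreted target of the same response, by 0.86 (adjusted p = 0.0343), and Serpinh1, a chaperone of collagen, by 0.78 (adjusted p = 0.0459). DKO replicates 1 and 4 were the highest for Hspa5 and Manf, and both calls were lost without either of them, as they were without control replicate 1, 3 or 4 or re-expression replicate 2. Hspa5 was also lost without re-expression replicate 1 or 4, and Serpinh1 without control replicate 1 or 2 or any 1 liver of the other groups. The calls of Hspa5, Manf and Serpinh1 were lost under 15, 12 and 16 of 23 alternatives, with adjusted p up to 0.131. Serpinh1 was at 0.41 without control replicates 1 and 2 (adjusted p = 0.121, limma) and at 1.14 without control replicates 3 and 4 (adjusted p = 0.00792). Rbm15b on the same strand, at a mean of 11.6 TPM, and Dcaf1 on the other, at 21.5 TPM, overlap Manf.

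**Figure D5:**
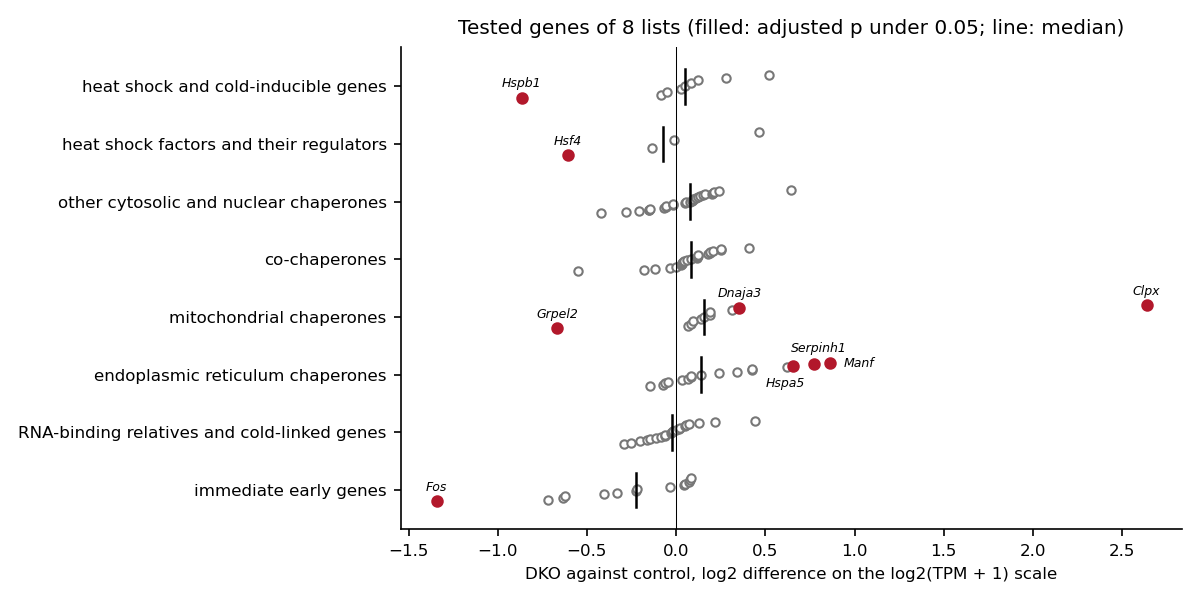
Differences between livers labelled DKO and control livers on the log2(TPM + 1) scale (horizontal axis) for the tested genes of 8 lists, with filled and named points where the adjusted p was under 0.05 and a line at each median. Clpx lies at 2.64, far from the other genes of its list, and the cytosolic and nuclear chaperones and the co-chaperones have no filled point.

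The lists near Cirbp and Rbm3 are set against the 2.99% of all genes called higher and 2.34% called lower. Of 21 tested RNA-binding relatives and cold-linked genes 0 were called in livers labelled DKO against control livers by limma or voom, 1 had an unadjusted p under 0.05, and the median was -0.02. That gene was Ybx3, a cold shock domain protein, at 0.44 (adjusted p = 0.0815). Of 3 liver RNAs known to follow systemic or temperature cues, the clock gene Per2 was called lower, at -0.43 (adjusted p = 0.0456, limma), a call lost under 16 of 23 alternatives (adjusted p up to 0.115), among them the loss of any 1 liver labelled DKO, of control replicate 2, 3 or 4, or of re-expression replicate 2, 3 or 4. Noct was at -0.26 and was not called. In re-expression livers Per2 stood at 33.1 ± 3.98 TPM, in livers labelled DKO at 26.1 ± 1.77 TPM and in control livers at 35.8 ± 4.86 TPM (SD, n = 4 each).

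Of 14 tested immediate early genes, which respond within minutes to stress and handling, 1 was called lower and 0 higher in livers labelled DKO against control livers, with a median of -0.22. Over all genes tested 2.34% were called lower and 2.99% higher. Fos had 0.995, 0.953, 2.003 and 0.922 TPM in re-expression livers, 0.179, 1.78, 1.82 and 0.833 TPM in livers labelled DKO, and 3.29, 2.95, 6.58 and 4.46 TPM in control livers. As for Hspb1, every control liver lay above every other liver. The values rest on 5 to 11 reads a library in re-expression livers, 1 to 9 in livers labelled DKO and 16 to 31 in control livers. Fos fell by 1.34 on the log2(TPM + 1) scale in livers labelled DKO against control livers (adjusted p = 0.0297, limma), a call lost under 9 of 22 alternatives (adjusted p up to 0.129). The difference was -2.12 with voom (adjusted p = 0.0153) and -2.10 with a pseudocount of 0.1 (adjusted p = 0.0603). Re-expression and control livers differed by -1.24 (adjusted p = 0.0770). The call did not hold without DKO replicate 1 or 4 or control replicate 1, 3 or 4. Control replicate 2, the liver highest in heat shock RNA, was the lowest control liver for Fos.

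Markers of other liver cells were read in the same livers, and their calls are set against the same shares of 2.99% higher and 2.34% lower. The summed level of 8 stellate cell markers ran from 182 to 230.3 TPM in re-expression livers, 219 to 248 TPM in livers labelled DKO and 136 to 183 TPM in control livers, and 3 of the 8 were called higher in livers labelled DKO against control livers. The 5 red blood cell genes summed to 372 to 835 TPM, 399.9 to 686 TPM and 276 to 382 TPM in the same order, with 0 called by limma, 5 with an unadjusted p under 0.05 and 1 called higher by voom. The 8 markers of sinusoidal endothelium summed to 169 to 250.2 TPM, 250.3 to 309.6 TPM and 210.0 to 237 TPM, and the 9 Kupffer cell markers to 431 to 1083 TPM, 503 to 556 TPM and 476 to 1055 TPM, with 0 of either called by limma or voom, and 5 and 0 with an unadjusted p under 0.05. Of 4 tested cholangiocyte markers 1 was called higher, and the 6 in the table summed to 79.9 to 106, 77.0 to 86.5 and 74.5 to 105 TPM.

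Hepatocyte markers were abundant in every liver, with 7 in the table that summed to 41966 to 45678 TPM in re-expression livers, 41832 to 44730 TPM in livers labelled DKO and 39899 to 43981 TPM in control livers, and 2 of them were called higher in livers labelled DKO against control livers. No marker of these lists was at 0 throughout a group. The part of these cells in the difference of Hspb1 was not tested, and in whole liver fewer cells of a type and less RNA per cell cannot be told apart.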

How the data were processed

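The data were total RNA-seq of 12 livers. Per the labels' protocols, RNA was extracted with Trizol and a column, and 1 microgram a liver went into a stranded total RNA kit. Per the submitters' processing notes, STAR 2.7.1a, featureCounts 2.0.1, SAMtools 1.9, DESeq2 1.36.0 and bcl2fastq 2.17 were used on mm10. No source used here gives the strand setting of featureCounts. The deposited TPM values were computed by the authors, as were the deposited log2 fold changes and adjusted p-values of 3 numbered comparisons. The first 2 were matched to groups by their correlation with the fold changes computed here, and the third was not used. Gene lengths in bases were deposited in the same table, and for all TPM values (100% within 0.01 reads) they gave back whole reads after a fixed offset of 199 bases was taken off. These served for depth and voom only.

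TPM is not a count, so limma 3.58.1 in R 4.3.3 was fitted to log2(TPM + 1) of all 12 libraries with 3 group means and a trended prior variance (9 residual degrees of freedom), over the 17957 genes whose mean reached 1 TPM, two-sided, with Benjamini-Hochberg adjustment and a threshold of 0.05. Differences on that scale understate changes of genes with little RNA. The p-values of limma and voom set a difference between groups against the spread between livers of the same group. The exact p-values of the pairs test association between genes among livers of the same group. Replicate pairs differed by a chi-square of 4.59 to 15.6 per degree of freedom, more than sampling noise. The members and lists were chosen with earlier results of these data known. The rule for naming took all members, the REV-ERB genes, up to 4 tested genes with the smallest p of each comparison from each list, and 3 genes most like Cirbp and Hsph1. Libraries were grouped by their titles and genotype labels. Alternatives were a pseudocount of 0.1, no filter, a filter at 5 TPM, size factors, quantile scaling, the 8 libraries of a comparison, the replicate number as a block, sample weights, voom, each library left out, and, chosen after seeing the data, control replicates 3 and 4 or 1 and 2 left out and the reads of Hspa1a and Hspa1b summed. Promoters came from RefSeq, and positions from the GENCODE annotation on mm10. The procedure was also run on simulated reads with the same dispersion for every gene and no split among the control livers. That run cannot tell how it handles the split seen here. Other software was Python 3.11.15, numpy 2.4.6, pandas 2.3.3, scipy 1.17.1 and matplotlib 3.10.9.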

Additional observations from a re-analysis of the deposited data

Results flagged for a closer look

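Among 27 groups of 4 livers checked for a liver far from the others, 2 had one, and chance flags about 1 in 20 groups. Hsph1 in control livers had its highest value, 25.7 TPM, in replicate 2, with a gap to the next liver of 0.892 of the group's range, above Dixon's critical value for 4 samples. Hspb1 in re-expression livers had its lowest value, 10.5 TPM, in replicate 4, with a gap of 0.948 of the range, where the other 3 livers all stood at 11.8 TPM. The gap in Hspb1 is small against the counting error of 22 to 25 reads a library.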

How the results depend on the processing

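Between livers labelled DKO and control livers, 1 member was called lower and 0 higher. The count of members called lower was 0 without a filter and 0 with the 8 libraries alone, 2 without control replicates 3 and 4, 0 without control replicates 1 and 2 (alternatives chosen after seeing the data), and 0 to 1 with 1 library left out. The count called higher was 0 to 1 with 1 library left out. Between re-expression and control livers 0 were called lower, and the count was 1 with a filter at 5 TPM, with size factors, with quantile scaling and with voom, and 0 to 1 with 1 library left out; Hspb1 was the gene each time. Adjusted p of Hspb1 ran from 0.0224 to 0.102 over the alternatives between livers labelled DKO and control livers, and from 0.0322 to 0.144 between re-expression and control livers. The cause of these changes was not tested. With the replicate number as a replicate block, the counts of members called stayed at 1 lower between livers labelled DKO and control livers and 0 in the others. Correlations of same-numbered libraries were -0.07 to 0.14. Libraries with different numbers were not compared in this way, so these values cannot decide whether the numbers pair the livers.

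Signs turned for differences close to 0, and of these Rbm3 between livers labelled DKO and control livers was called lower, at -0.37, without control replicates 3 and 4. With 1 library left out, the ranges between livers labelled DKO and control livers were -0.24 to 0.26 for Hspa1b, -0.028 to 0.34 for Hsp90aa1, -0.043 to 0.13 for Dnajb1 and -0.17 to 0.070 for Rbm3. Between re-expression livers and livers labelled DKO they were -0.018 to 0.19 for Hsf1, -0.20 to 0.020 for Hsph1, -0.22 to 0.006317 for Hsp90aa1, -0.15 to 0.088 for Hspb1, -0.16 to 0.061 for Cirbp and -0.000643 to 0.059 for Rbm3. Between re-expression and control livers they were -0.11 to 0.10 for Hsf1, -0.079 to 0.42 for Hspa1b, -0.11 to 0.25 for Hsp90aa1 and -0.14 to 0.10 for Rbm3. With sample weights, livers labelled DKO against control livers gave -0.0001153 for Hspa1b and -0.003835 for Dnajb1, and re-expression against control livers gave 0.036 for Hsf1 and -0.013 for Hsp90aa1. Without control replicates 3 and 4, livers labelled DKO against control livers gave -0.19 for Hsp90aa1 and -0.019 for Dnajb1, and re-expression against control livers gave 0.024 for Hsf1 and -0.27 for Hsp90aa1. Without control replicates 1 and 2, livers labelled DKO against control livers gave -0.13 for Hspa1b and 0.26 for Rbm3, and re-expression against control livers gave 0.29 for Rbm3. The within-group correlation of Cirbp and Rbm3 ran from -0.62 to 0.053 with 1 library left out. The filter at 5 TPM gave no value for Hspa1b, whose 5 to 28 reads a library limit what can be seen, as do 0 to 4 reads for Hspa1a.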
